A study of Mus musculus with 9 samples.

Results

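A set of 9 genes of natural killer (NK) and cytotoxic T cells, listed by symbol, was followed here in spleen: the receptors Klrd1, Klrk1, Klrb1c, Klrg1 and Ncr1, the cytokine receptor chain Il2rb, the transcription factors Eomes and Tbx21, and the death ligand Fasl. Every probe set whose platform annotation gave exactly 1 of these symbols was taken, which left 11 of the 45037 probe sets tested and 8 of the 9 genes. Klrb1c, which encodes the NK1.1 antigen of NK cells, shared its probe set with Klrb1b, so no value was given to it. The arrays measured total RNA from frozen tissue: 5 splenic lymphomas of mice that carry the Sca1-MALT1 transgene, and 4 spleens of healthy wild-type mice. Every sample was whole spleen tissue, with no sort for a cell type, and both groups lack any other allele or agent in the labels. The name of the transgene gives the Sca1 promoter, which is active in haematopoietic stem and progenitor cells, and the MALT1 oncogene, which encodes a protease and scaffold of antigen receptor signalling. Age, sex and strain do not appear in the labels. The labels number the samples without saying that each came from its own animal, so the p-values measure only the spread between these samples, which may in part be technical.

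NK cells weigh activating against inhibitory surface receptors, which signal through adaptor proteins, before they kill a target cell. CD94, the product of Klrd1, pairs with NKG2 proteins to read the non-classical MHC molecule Qa-1, while NKG2D, the product of Klrk1, reads stress ligands. IL-15 acts through the IL-2 receptor beta chain (Il2rb) and keeps NK cells alive, and the T-box factors T-bet (Tbx21) and Eomesodermin (Eomes) set the cytotoxic programme. Activated and memory CD8 T cells use most of these genes too, and Ncr1, which encodes NKp46, is among the more restricted to NK cells. MALT lymphoma, the disease modelled, is a tumour of B cells, which do not normally carry these receptors.

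Whole-tissue facts bear on all values below. The 7 measured B-cell markers of 8 listed were bright on every array, with Ms4a1, which encodes CD20, between 13.0 and 14.2 on the log2 scale. All 7 had a lower mean in lymphoma than in wild-type, with a median log2 difference of -0.51, and 0 were called. Averaged as deviations from each marker's own mean, they gave -1.03 in lymphoma 1 and -0.20 to 0.31 on the other arrays. The 10 measured T-cell markers of 12 listed, averaged as deviations from each marker's own mean, gave a T-cell score of 0.12 to 0.43 in the wild-type spleens. Lymphomas 1 and 2 stood apart at -0.86 and -1.03, against 0.16 to 0.39 in lymphomas 3 to 5. The same 2 lymphomas had the highest erythroid scores, 3.40 and 3.03, against -2.26 to 0.36 on the other 7 arrays. Xist was near 7.15 in lymphoma 5 and 7.92 in lymphoma 3, and between 13.69 and 13.91 on the other arrays. In whole tissue, fewer cells of a type and less RNA per cell cannot be told apart.

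Differences below are lymphoma minus wild-type on the log2 scale of the deposited values, tested with limma and adjusted by Benjamini-Hochberg over all 45037 probe sets. A probe set was called at an adjusted p under 0.05. None of the 11 probe sets was called, where 0.486% of all probe sets were, and the smallest adjusted p was 0.130. Before adjustment 4 of the 11 had p under 0.05, all of them higher in lymphoma and all from Eomes and Fasl, where 5.15% of all probe sets did. The difference was above 0 for 9 of the 11, against 47.2% of all probe sets, and its median was 0.37 against -0.01. All 5 lymphomas lay above all 4 wild-type spleens for 3 of the 11, against 2.39% of all probe sets. With 1 probe set per gene, 0 of 8 genes were called (0.715% of 18193 genes) and 2 of 8, Eomes and Fasl, had unadjusted p under 0.05 and were higher (6.69% of all genes). The counts before adjustment lie above the shares over all features. The 11 probe sets are not independent and the set was not tested, so the counts describe these genes and are not taken to set them apart.

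**Figure D1:**
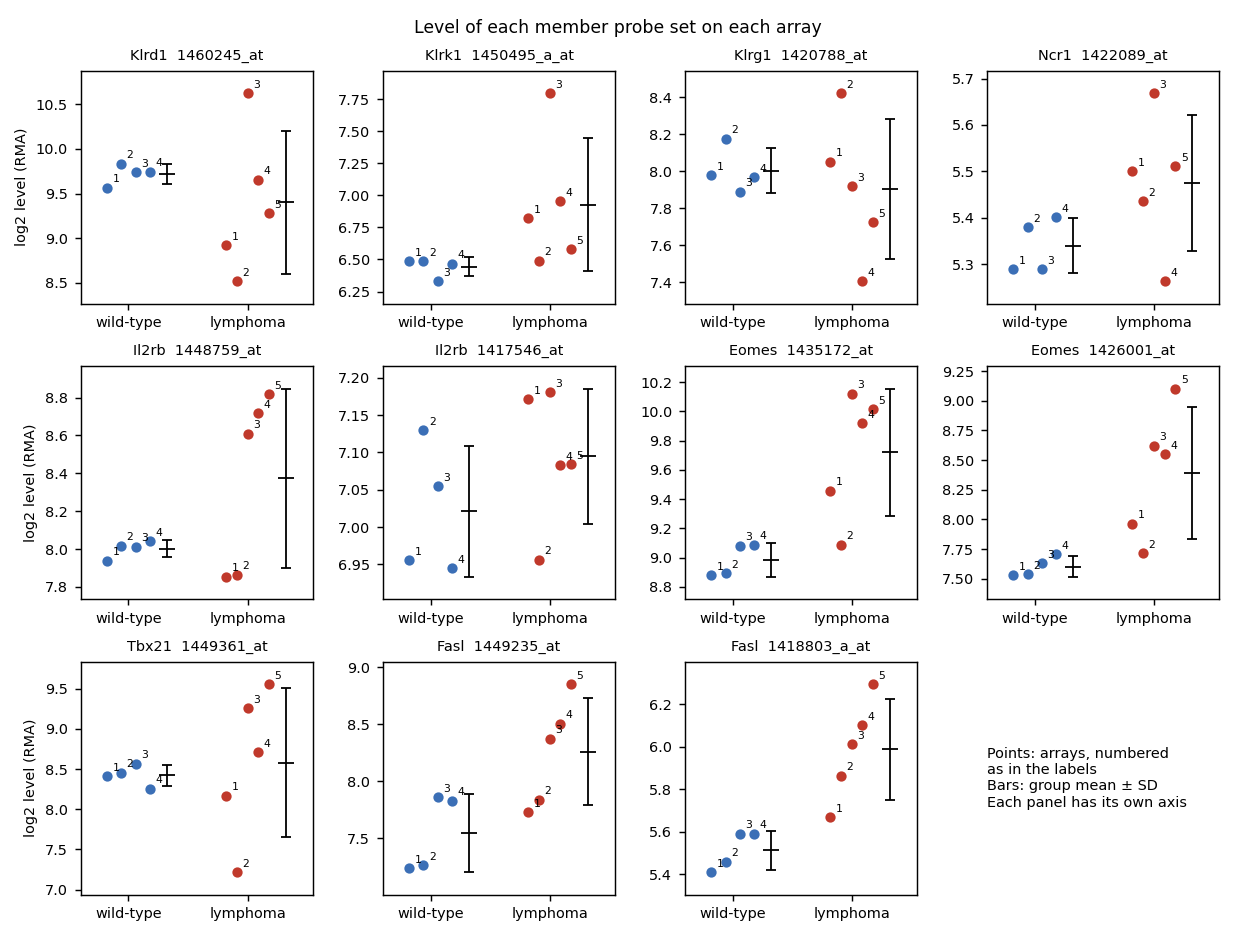
Log2 level (RMA) of the 11 probe sets on each array, wild-type spleens in blue and lymphomas in red, numbered as in the labels, with bars for the group mean and SD (n = 4 and n = 5). The wild-type spleens lie close together, with Klrd1 between 9.57 and 9.84, while the lymphomas spread from 8.52 to 10.63.

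None of the 3 Klr receptors was called. Klrd1, the CD94 chain, was 9.57, 9.84, 9.74 and 9.74 in wild-type spleens 1 to 4, and 8.92, 8.52, 10.63, 9.66 and 9.28 in lymphomas 1 to 5. Lymphoma 3 was above every wild-type spleen, lymphomas 1, 2 and 5 were below every one, and the groups overlapped. The means were 9.72 ± 0.11 (SD, n = 4) and 9.40 ± 0.80 (SD, n = 5), and the limma difference of -0.32 (95% interval -1.11 to 0.47, adjusted p = 0.737) has an interval on both sides of 0.

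Klrk1, the activating receptor NKG2D, read 6.49, 6.49, 6.33 and 6.47 in the wild-type spleens and 6.82, 6.49, 7.80, 6.96 and 6.58 in the lymphomas. Every lymphoma lay above every wild-type spleen, but lymphoma 2 hardly so (6.490 against 6.485 in spleens 1 and 2), and lymphoma 3 stood well above the others. The difference was 0.49 (95% interval -0.034 to 1.01, limma adjusted p = 0.392), and it was 0.27 without lymphoma 3. The signal was of middling brightness, at the 46.5th percentile of all probe sets.

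Klrg1 encodes an inhibitory receptor of mature NK cells and of effector CD8 T cells that binds cadherins. Its values were 7.98, 8.18, 7.89 and 7.97 in wild-type and 8.05, 8.42, 7.92, 7.41 and 7.72 in lymphoma. It was highest in lymphoma 2 and lowest in lymphoma 4, and the groups overlapped, with a difference of -0.098 (95% interval -0.50 to 0.30, limma adjusted p = 0.852).

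Ncr1 was dim, at the 25.8th percentile of all probe sets. It measured 5.29, 5.38, 5.29 and 5.40 in wild-type and 5.50, 5.44, 5.67, 5.26 and 5.51 in lymphoma. Of the 5 lymphomas, 4 were above the wild-type range and lymphoma 4 was below it. The difference of 0.14 (95% interval -0.059 to 0.33, limma adjusted p = 0.527) missed the threshold, and RMA compresses differences at such low signal.

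Il2rb, the chain through which IL-15 and IL-2 signal, split the lymphomas. It was 7.94, 8.02, 8.01 and 8.04 in the wild-type spleens, 7.85 and 7.87 in lymphomas 1 and 2, and 8.61, 8.72 and 8.82 in lymphomas 3 to 5. Lymphomas 1 and 2 lay just below the whole wild-type range and the other 3 above it, so the mean difference of 0.37 (95% interval -0.11 to 0.85, limma adjusted p = 0.480) describes no single lymphoma well. A second Il2rb probe set, 1417546_at, varied little, from 6.94 to 7.18 over all 9 arrays, and gave 0.074 (adjusted p = 0.715). The 2 probe sets disagreed over the arrays (r = 0.37, n = 9), so the split of the lymphomas rests on 1448759_at.

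Eomes directs the late differentiation of NK cells and memory CD8 T cells and was among the largest differences of the 11. Probe set 1435172_at read 8.88, 8.89, 9.08 and 9.09 in wild-type and 9.46, 9.09, 10.12, 9.92 and 10.01 in lymphoma. Lymphoma 2 was listed at exactly the value of wild-type spleen 4, and the other 4 lymphomas were above all wild-type spleens. The means were 8.98 ± 0.11 (SD, n = 4) and 9.72 ± 0.43 (SD, n = 5), a 1.66-fold difference (log2 0.74, SE 0.20, 95% interval 0.29 to 1.18). The unadjusted limma p was 0.00458 and the adjusted p 0.153. The second probe set, 1426001_at, followed it closely (r = 0.956, n = 9). It read 7.53, 7.54, 7.63 and 7.71 against 7.96, 7.72, 8.62, 8.55 and 9.10, with every lymphoma above every wild-type spleen and lymphoma 2 nearest to them. Its difference was 0.79 (SE 0.25, 95% interval 0.24 to 1.34, limma adjusted p = 0.206).

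Tbx21, the other T-box factor, has the widest spread in lymphoma of the 11 probe sets. It was 8.41, 8.46, 8.57 and 8.26 in the wild-type spleens and 8.17, 7.22, 9.26, 8.71 and 9.56 in the lymphomas. Lymphomas 3 to 5 were above every wild-type spleen and lymphomas 1 and 2 below every one. The SD was 0.13 in wild-type (n = 4) and 0.93 in lymphoma (n = 5), and the difference of 0.16 (95% interval -0.76 to 1.07, limma adjusted p = 0.901) has the widest interval of the 11.

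Fasl encodes the ligand that triggers death through Fas on target cells. Probe set 1449235_at read 7.24, 7.26, 7.86 and 7.83 in wild-type and 7.73, 7.84, 8.37, 8.51 and 8.85 in lymphoma. Wild-type spleens 3 and 4 reached the level of lymphomas 1 and 2, and lymphomas 3 to 5 were above all of these. The difference was 0.71 (SE 0.25, 95% interval 0.16 to 1.26), with an unadjusted limma p of 0.0164 and an adjusted p of 0.243. The dimmer probe set 1418803_a_at read 5.41, 5.46, 5.59 and 5.59 against 5.67, 5.86, 6.01, 6.10 and 6.29. There every lymphoma was above every wild-type spleen, and its difference of 0.47 (SE 0.12, 95% interval 0.20 to 0.75) had the smallest adjusted limma p of the 11, 0.130. Both Fasl probe sets ran together (r = 0.96, n = 9).

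Eomes, Fasl and Klrk1 are the genes with a probe set on which all lymphomas lay above all wild-type spleens. Their promoters are shown to let a reader look at what the genes with this pattern have upstream. Each is the 250 bases before a start site that the RefSeq promoter table (GRCm38.p6) lists for the gene, which need not be the outer end of its longest transcript, read 5′ to 3′ on the gene's strand, with matches to any of the 3 motifs below in capitals.
Eomes: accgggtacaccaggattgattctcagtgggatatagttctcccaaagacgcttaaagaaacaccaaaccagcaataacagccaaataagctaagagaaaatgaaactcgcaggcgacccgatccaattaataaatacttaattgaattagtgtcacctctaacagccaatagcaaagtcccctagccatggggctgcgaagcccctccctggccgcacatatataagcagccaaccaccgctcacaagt
Fasl: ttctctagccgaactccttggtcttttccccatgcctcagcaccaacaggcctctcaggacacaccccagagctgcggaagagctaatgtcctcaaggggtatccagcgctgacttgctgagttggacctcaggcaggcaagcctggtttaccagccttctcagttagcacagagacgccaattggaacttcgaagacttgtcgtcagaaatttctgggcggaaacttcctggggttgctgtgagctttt
Klrk1: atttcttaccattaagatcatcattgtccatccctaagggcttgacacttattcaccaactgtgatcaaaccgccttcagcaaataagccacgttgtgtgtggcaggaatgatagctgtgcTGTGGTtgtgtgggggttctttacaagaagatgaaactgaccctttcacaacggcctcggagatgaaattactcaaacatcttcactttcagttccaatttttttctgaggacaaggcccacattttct
These lie at chr9:118477939-118478188 on the plus strand for Eomes, chr1:161788496-161788745 on the minus strand for Fasl, and chr6:129623865-129624114 on the minus strand for Klrk1. Searched on both strands were the T-box half-site AGGTGT, the STAT site TTCNNNGAA and the RUNX site TGTGGT, which are held by 11.8%, 7.02% and 14.0% of 32851 mouse promoter windows of this length. The windows of Eomes, Fasl and Tbx21 held none of these letters. Klrk1 held 1 RUNX match, starting 129 bases before the start site of its window. The 2 listed Ncr1 windows overlap over most of their length, and each held the same 2 RUNX matches. No match overlapped a match of another motif. The table had entries for 5 of the genes, and Klrd1, Klrg1 and Il2rb were not among them.

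**Figure D2:**
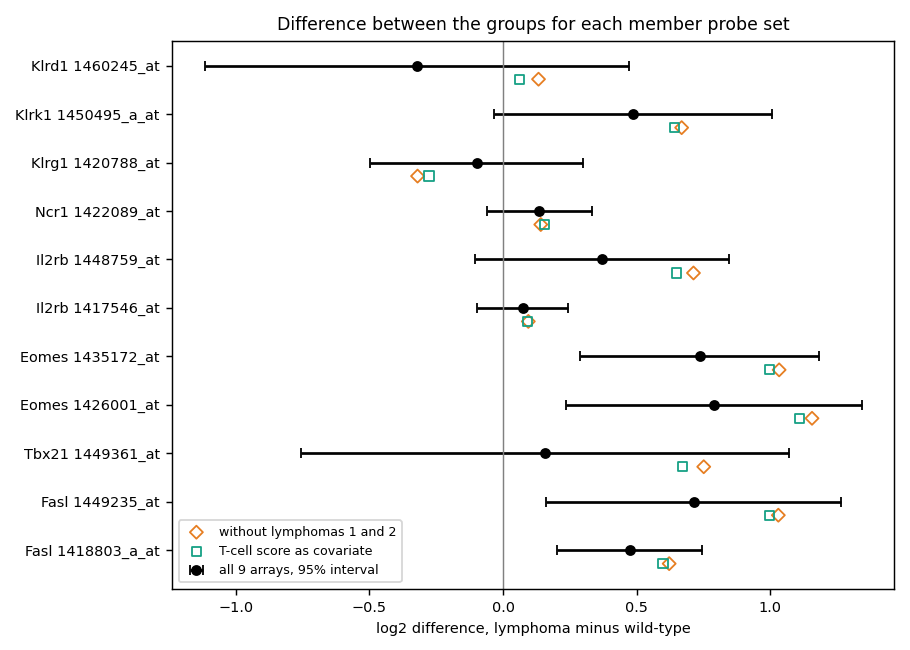
Log2 difference, lymphoma minus wild-type, for each of the 11 probe sets: black points with 95% intervals from all 9 arrays, and open symbols for the fit without lymphomas 1 and 2 and the fit with the T-cell score as a covariate. The intervals of the Eomes and Fasl probe sets lie above 0 (the lowest bound is 0.16), and the Klrd1 difference moves from -0.32 to 0.13 without lymphomas 1 and 2.

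A common feature ran through Il2rb (1448759_at), Eomes, Tbx21 and Fasl: lymphomas 3, 4 and 5 were the 3 highest of all 9 arrays for each of these genes. Lymphomas 1 and 2, whose T-cell scores were lowest, sat below all wild-type spleens for Il2rb and Tbx21 and inside their range for Fasl 1449235_at. Without these 2 lymphomas limma called 5 of the 11 probe sets, all higher, against 2.08% of all probe sets. They were Il2rb 1448759_at (0.71, adjusted p = 0.0075), both of Eomes (1.03, adjusted p = 0.00482, and 1.16, adjusted p = 0.0082) and both of Fasl (1.03, adjusted p = 0.0369, and 0.62, adjusted p = 0.0185). Leaving out lymphoma 2 alone was enough for Eomes 1435172_at (0.89, limma adjusted p = 0.0296). Among the lymphomas, numbers 1 and 2 had the lowest values on each of these 5 probe sets. Leaving them out raises the differences and narrows the lymphoma spread by construction, so these calls lend no support of their own. A fit with the T-cell score as a covariate, chosen after seeing the data, called the same 5 probe sets, against 0.595% of all: Il2rb 0.65 (adjusted p = 0.0234), Eomes 0.997 and 1.11 (0.00974 and 0.00979), Fasl 0.998 and 0.60 (0.0392 and 0.0373). Both fits turn on the same 2 arrays, so the second is not independent of the first. Without lymphomas 3 and 5, which had low Xist, 0 of the 11 were called, against 69 of all probe sets. Eomes 1435172_at was then 0.50 (limma adjusted p = 0.284) and Tbx21 -0.39, in a fit also chosen after seeing the data. Lymphomas 3 and 5 were the 2 highest arrays for Eomes 1435172_at and Tbx21. Leaving them out lowers these differences by construction, so this fit lends no support of its own either. With the Xist level as a covariate, which turns on lymphomas 3 and 5, 0 of the 11 were called, against 111 of all probe sets. Tbx21 stayed uncalled in all of these fits.

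Per array, the genes were also set against the T-cell score itself, again chosen after seeing the data and given as a description. Exact permutation tests were run on this scale too. The shift given next enters every gene's difference, so no p from them is used. The mean score was 0.24 in wild-type and -0.19 in lymphoma, so subtracting it adds the same 0.43 to the difference of every gene. Lymphomas 1 and 2, at -0.86 and -1.03, set that shift, as lymphomas 3 to 5 scored 0.16 to 0.39. Eomes minus the score was 8.66 to 8.82 in the wild-type spleens and 9.62 to 10.31 in the lymphomas. Il2rb minus the score was 7.61 to 7.90 against 8.23 to 8.89, and Fasl 7.09 to 7.60 against 8.0 to 8.87. For these 3 of 8 genes the groups did not overlap on this scale, and for Klrk1, Tbx21, Ncr1, Klrg1 and Klrd1 they did. How many of all genes separate on this scale was not counted, so the separation is not read as particular to these genes. How far fewer T cells in lymphomas 1 and 2, or the erythroid cells that move with them, enter these values was not tested.

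**Figure D3:**
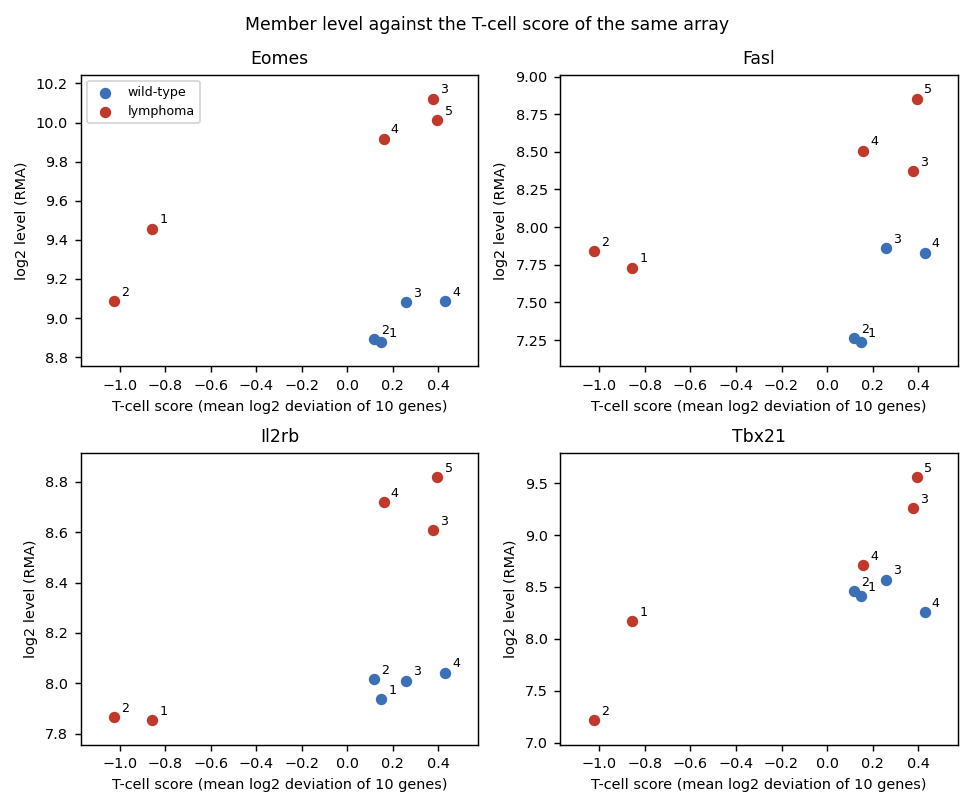
Log2 level (RMA) of Eomes, Fasl, Il2rb and Tbx21, each by its brightest probe set, against the T-cell score of the same array (mean log2 deviation of 10 T-cell genes), wild-type spleens in blue and lymphomas in red. Lymphomas 1 and 2 lie far to the left, at -0.86 and -1.03, and lymphomas 3 to 5 lie above the wild-type spleens at about the same score.

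Whether the genes differed from each other was tested within the array, with Ncr1 as the reference, in 8 contrasts. Eomes minus Ncr1 differed by 0.60 between the groups (exact permutation p = 0.0476, adjusted over the 8 contrasts 0.296). Fasl minus Ncr1 differed by 0.58 (exact permutation p = 0.111) and Eomes minus Tbx21 by 0.58 (exact permutation p = 0.0794), each with an adjusted p of 0.296. The contrasts of Klrk1, Il2rb and Tbx21 with Ncr1 were 0.35, 0.23 and 0.022, those of Klrg1 and Klrd1 -0.23 and -0.46. None of the 8 had an adjusted p under 0.05. The smallest p that 126 splits allow is 0.0159, which would adjust to 0.127 for 1 contrast alone, so at least 3 contrasts had to reach it for any to pass. The misses therefore do not show that these genes moved alike, and other pairs of genes were not compared.

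The genes most like each member were found by Pearson's r of deviations from the group means over the 9 arrays, among 6363 genes with enough signal and spread, as a description with no test. All genes share these 9 arrays and their cell makeup. Eomes ran closest to Rab37 (r = 0.995), Rundc3b (0.989) and Crtam (0.986), the last a receptor of activated NK and CD8 T cells. Tbx21 ran closest to Churc1 (0.993), Emp2 (0.987) and Foxp3 (0.987), the factor of regulatory T cells. Il2rb ran closest to Otulin (0.990), Sting1 (0.988) and the T-cell surface protein Cd6 (0.987), which is itself in the T-cell score.

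Klrd1 ran with Gm4814, Stmn2 and Unc5c (0.9754 to 0.9688), and Klrk1 with Srsf5, Scfd1 and Smim22 (0.984 to 0.956). Klrg1 ran with Cabp4, Naip6 and Gbp6 (0.961 to 0.959), Ncr1 with Ccnd1, Slc15a3 and Col3a1 (0.899 to 0.880), and Fasl with Unc119b, Cnr2 and Bin1 (0.960 to 0.941). Among the members, Eomes and Tbx21 had r = 0.928, which put Tbx21 at rank 133 for Eomes and Eomes at rank 74 for Tbx21. Klrd1 and Klrk1 had r = 0.912, which put Klrd1 at rank 21 for Klrk1 and Klrk1 at rank 47 for Klrd1. Klrg1 went against Il2rb (-0.78), Eomes (-0.77), Fasl (-0.70) and Tbx21 (-0.68).

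**Figure D4:**
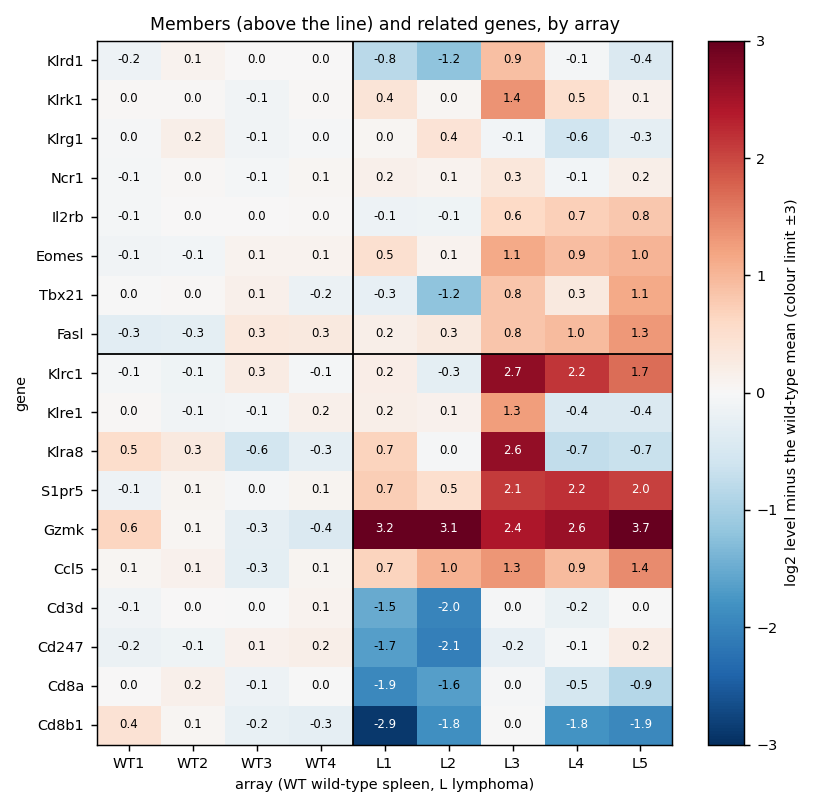
Log2 level minus the wild-type mean for the 8 member genes (above the line) and 10 related genes on each array, WT for wild-type spleens and L for lymphomas, with the value printed in each cell. Lymphoma 3 has the highest Klrd1 (10.63) and Klrk1 (7.80), and Cd3d and Cd247 are low in lymphomas 1 and 2.

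Other genes of NK and cytotoxic cells came from 5 lists with 109 genes, 85 of them measured. Of the 85, 2 were called, both higher (0.407% of all genes were called higher), 21 had unadjusted p under 0.05 and were higher (6.69% of all genes), and 1 had it and was lower (8% of all genes). All lymphomas lay above all wild-type spleens for 15 of the 85, against 3.29% of all genes. The median difference was 0.14, against 0.0012 over all genes. The 2 called genes are both products of cytotoxic lymphocytes: Gzmk, a granule protease, rose by 3.0 (limma adjusted p = 0.00574), and Ccl5, a chemokine that attracts T cells and NK cells, rose by 1.08 (limma adjusted p = 0.0247). The Ccl5 call was lost without any of wild-type spleens 1 to 4 or without lymphoma 5, with a limma adjusted p of 0.058 to 0.111. In those fits calls over all genes also fell, from 130 to between 10 and 36, so the loss is not particular to Ccl5. Its difference stayed between 0.99 and 1.19 when any 1 array was left out.

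Of the other NK receptors and adaptors 23 of 34 were measured, none was called, and the median was -0.0012. Klrc1 encodes NKG2A, the inhibitory partner of CD94. It was 6.27 to 6.66 in wild-type, 6.60 and 6.12 in lymphomas 1 and 2, and 9.06, 8.56 and 8.07 in lymphomas 3 to 5. The partner of CD94 was thus above the wild-type range in lymphomas 3 to 5, while Klrd1 itself was above that range in lymphoma 3 and not in lymphomas 4 and 5. Its difference of 1.28 (95% interval 0.030 to 2.53, limma adjusted p = 0.329) was 2.16 without lymphomas 1 and 2 (adjusted p = 0.00282).

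The adaptors also differed in their values. Fcer1g, which carries the signal of Ncr1 and of Fc receptors, was 9.18 to 9.26 in wild-type and 9.70 to 10.69 in lymphoma (0.79, limma adjusted p = 0.0943). Tyrobp, the adaptor DAP12, was 11.42 to 11.66 against 11.71 to 12.18 (0.39, limma adjusted p = 0.134), and Hcst, the adaptor DAP10 of NKG2D, differed by -0.090 (limma adjusted p = 0.875). Macrophages and neutrophils use Fcer1g and Tyrobp as well. All 7 measured macrophage markers of 8 listed had a difference above 0, 5 of them called higher (0.407% of all genes), with scores of -0.85 to -0.60 in wild-type and 0.34 to 0.80 in lymphoma. Of 8 neutrophil markers 7 were measured and 0 called, with scores of -1.81 to -1.06 in wild-type and -1.41 to 4.57 in lymphoma, highest in lymphoma 1. The part of these cells in the 2 adaptors was not tested.

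Ligands and signalling partners gave 17 measured genes of 26, with 0 called and a median of -0.025. Il15, the cytokine that Il2rb reads, was 6.95 to 7.30 in wild-type and 7.22 to 8.84 in lymphoma (0.58, limma adjusted p = 0.394), highest in lymphoma 2. Jak3, the kinase bound to the common gamma chain next to Il2rb, differed by 0.78 (limma adjusted p = 0.142), with every lymphoma above every wild-type spleen. Clec2i, a ligand of a Klrb1 family receptor, differed by -0.60 (limma adjusted p = 0.544).

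Among 15 measured transcription factors of 16, none was called and the median was 0.19. Nfil3, which NK cell development requires, was 5.73 to 6.0 in wild-type and 6.34 to 7.40 in lymphoma (0.84, limma adjusted p = 0.110). Prdm1, which encodes Blimp-1 and also acts in plasma cells, differed by 0.54 (adjusted p = 0.141). Id2 and Zeb2, partners of the T-box factors in maturation, differed by 0.19 and 0.21 (adjusted p = 0.706 and 0.682).

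The effector list had all 18 of its genes measured, 10 with unadjusted p under 0.05 and higher (6.69% of all genes), and 7 with every lymphoma above every wild-type spleen (3.29% of all genes). Gzmm, a granzyme of NK cells that was picked after its values were seen, was 6.71 to 6.93 in wild-type and 7.30 to 8.77 in lymphoma (1.33, limma adjusted p = 0.0692). It was called without lymphoma 2 (1.53, adjusted p = 0.0133) and in the fits without lymphomas 1 and 2 and with the T-cell score. Gzmb (granzyme B) was 6.05 to 6.25 in wild-type and 6.26 to 8.49 in lymphoma (1.17, limma adjusted p = 0.198). Ifng, the cytokine that T-bet induces, differed by 0.88 (limma adjusted p = 0.183). Gzma differed by -0.047 (limma adjusted p = 0.974) and the pore protein Prf1 by 0.0071 (limma adjusted p = 0.992). Neither of these 2 means describes the single lymphomas well. Prf1 was 8.21 to 8.37 in wild-type, 7.55 and 7.83 in lymphomas 1 and 2, and 8.49 to 8.87 in lymphomas 3 to 5. Gzma was above every wild-type spleen in lymphomas 2 and 5 (8.90 and 7.67). It was below every one in lymphomas 1, 3 and 4 (6.66 to 6.79). Gzmk was 10.34 and 10.27 in lymphomas 1 and 2 and 9.60 to 10.89 in lymphomas 3 to 5, against 6.73 to 7.81 in wild-type.

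In the list of migration and maturation receptors 12 of 15 genes were measured and 0 called, with a median of 0.42. S1pr5, through which mature NK cells leave lymphoid tissue and which is a target of T-bet, was 4.75 to 4.99 in wild-type, 5.63 and 5.40 in lymphomas 1 and 2, and 6.94 to 7.08 in lymphomas 3 to 5. Its difference was 1.51 (limma adjusted p = 0.102), and 2.11 without lymphomas 1 and 2 (adjusted p = 6.27e-05). Cd27, lost as NK cells mature, differed by -0.80 (adjusted p = 0.492). Without lymphomas 1 and 2, 12 of the 85 genes were called (3.3% of all genes), and with the T-cell score as a covariate 7 were (0.973% of all genes). Klrc1, Gzmm and S1pr5 were lowest in lymphomas 1 and 2 among the lymphomas, so leaving these out raises their differences by construction.

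Markers of T cells themselves gave no call. All 10 had a difference below 0, with a median of -0.36, and Cd247, which also serves NK receptors, and Cd3d differed by -0.76 and -0.75 (limma adjusted p = 0.483 and 0.438). Cd8a and Cd8b1, the chains of the CD8 co-receptor, differed by -1.0 (adjusted p = 0.233) and -1.69 (adjusted p = 0.151). Cd8b1 was 9.34 in lymphoma 3, within the wild-type range of 9.09 to 9.80, and 6.47 to 7.56 in the other 4. Of the innate lymphoid markers only Rora was measured (0.074, adjusted p = 0.845).

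**Figure D5:**
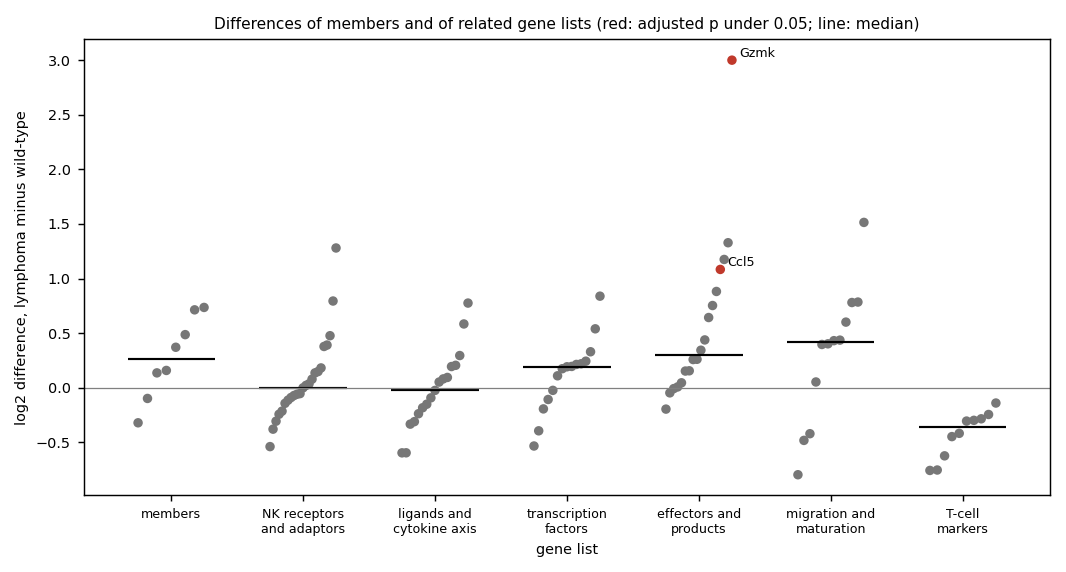
Log2 difference, lymphoma minus wild-type, of each measured gene of the member set and of 6 related lists, with the median as a line and called genes in red. Gzmk (3.0) and Ccl5 (1.08) are the called genes, and all 10 T-cell markers lie below 0.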

How the data were processed

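The authors deposited log2 values that came from RMA, named with no version per the submitters' processing notes; it subtracts background, equalises the arrays and combines the probes of each set. No source used here gives the genome build or the probe definitions. After sorting, the arrays' values lay within 0.191 of each other, so the deposited log2 values were kept. Of 45101 probe sets 64 controls were left out. The platform annotation gave 34945 of the others 1 symbol, 932 several and 9160 none. A gene with several probe sets was represented by the brightest.

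The 2 groups were fitted by limma 3.58.1 (R 4.3.3) as a two-sided moderated comparison with no covariate or filter, and p-values were adjusted by Benjamini-Hochberg over 45037 probe sets or 18193 genes (threshold 0.05). Exact permutation tests used scipy 1.17.1 over 126 splits. The limma script was tested on simulated data. Tried besides were a filter on dim probe sets, other normalizations and variance priors, weights for arrays, unequal variances, a replicate block, covariates (18S, Gapdh 3-prime minus 5-prime signal, erythroid or T-cell score, Xist), the mean of a gene's probe sets, and fits that leave out arrays. Likeness used genes with a mean of at least 6 and a within-group SD of at least 0.2. A contrast for Klrb1c was planned and could not be made. Figures were drawn with matplotlib 3.10.9.

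The genes, lists and tests were chosen with earlier results of these data known. Every member probe set is named. Of each of the 5 NK and cytotoxic lists and of the T-cell markers the called genes are named, or else the 2 with the largest differences, besides some fixed genes such as Gzmb, Hcst and Id2. Other cell type markers are given as scores and counts.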

Additional observations from a re-analysis of the deposited data

Results flagged for a closer look

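Of 66 groups of 4 or 5 values examined, 22 of them of the member probe sets, 2 held a sample whose gap to its nearest neighbour was large for the group's range (Dixon's criterion at the 95% level). Chance gives about 1 such group in 20. Klrk1 1450495_a_at was lowest in wild-type spleen 3, at 6.33127, and lay from 6.46594 to 6.4853 in spleens 1, 2 and 4. Ccl5 was 11.6335 in the same spleen and 11.9793 to 12.0484 in spleens 1, 2 and 4. Without wild-type spleen 3 the Ccl5 difference was 0.99 (limma adjusted p = 0.111), and 14 of all genes were called, against 130 in the main comparison.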

How the results depend on the processing

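Under the filter on dim probe sets, a repeated quantile normalization, median centring, an intensity trend, a robust prior, the mean of a gene's probe sets, the Xist level as a covariate and with probe sets of less specific suffixes left out, 0 member genes and 2 other NK and cytotoxic genes were called, as in the main comparison. Called member probe sets, member genes and other genes numbered 3, 2 and 11 with array weights, 2, 2 and 4 with the erythroid score, 1, 0 and 4 with the Gapdh signal difference, 5, 3 and 12 without lymphomas 1 and 2, and 5, 3 and 7 with the T-cell score. They were 0, 0 and 1 with the 18S level, with the replicate block and without lymphomas 3 and 5, and 0, 0 and 0 with unequal variances, where 0 of all probe sets were called and 4 member probe sets had unadjusted p under 0.05. Leaving out 1 array gave 0 to 1 member probe sets, 0 to 1 member genes and 1 to 7 other genes, the highest without lymphoma 2, and 0 to 0 within-array contrasts. Calls over all genes moved too: 130 in the main comparison, 532 with array weights, 459 with Gapdh, 117 with the erythroid score, 601 without lymphomas 1 and 2, 177 with the T-cell score, 48 without lymphomas 3 and 5, 14 with 18S and 7 with the replicate block. Over all probe sets the main comparison called 219, array weights 821, Gapdh 809 and the erythroid score 135. The count was 935 without lymphomas 1 and 2, 268 with the T-cell score and 69 without lymphomas 3 and 5. It was 0 with 18S and 5 with the replicate block. Leaving out 1 array gave 10 to 328 genes and 0 to 530 probe sets. The T-cell score and the fit without lymphomas 3 and 5 were chosen after seeing the data.

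Directions turned as follows. Klrd1 was 0.57 with the 18S level, 0.0083 with the erythroid score, 0.061 with the T-cell score and 0.13 without lymphomas 1 and 2. Tbx21 was -0.41 with Xist, -0.39 without lymphomas 3 and 5, -0.086 with the replicate block, and -0.086 to 0.50 without 1 array. Hcst was 0.12 with array weights, 0.21 with 18S, 0.16 with the erythroid score, 0.17 with the T-cell score, 0.21 without lymphomas 1 and 2 and -0.20 to 0.024 without 1 array. With 18S, Clec2i was 0.14 and Cd3d 0.022. Klre1 and Klra8 were -0.034 and -0.030 without lymphomas 3 and 5. Without 1 array Klrg1 ranged from -0.23 to 0.026, Klre1 from -0.13 to 0.29, Klra8 from -0.19 to 0.66, and the contrast of Tbx21 and Ncr1 from -0.21 to 0.35. The cause of these turns was not tested. Both Eomes and both Fasl probe sets, both of Il2rb, Klrk1 and Ncr1 stayed above 0 in every alternative run, with Eomes 1435172_at between 0.50 and 1.16.

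Gzmk had an adjusted p of 0.077 with unequal variances and 0.0555 with 18S. Ccl5 had 0.143 with unequal variances, 0.113 with 18S and 0.196 with the replicate block. Same-numbered samples deviated together in none of the 4 numbers by much (r = 0.10, -0.19, 0.15 and -0.038), so the numbers were not taken as pairs. With the replicate block Eomes 1435172_at was 0.66 (adjusted p = 0.269), and its differences equal those without lymphoma 5, which has no partner. Dim signal limits Ncr1 and the second Fasl probe set.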

Other observations

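Lymphoma 3 had the highest value of all 9 arrays for Klrd1, Klrk1, Ncr1 and the brighter Eomes probe set. Of these, Ncr1 and Eomes lie on other chromosomes than Klrd1 and Klrk1. Genes that lie with Klrd1 and Klrk1 in the NK gene complex of chromosome 6 were looked at after this was seen. The part from Klrb1c to Klrk1 alone holds 23 protein-coding genes in RefSeq (GRCm38.p6), and the Klr genes below were taken by name and not limited to that part. Of 12 other Klr genes measured, 5 were highest in lymphoma 3 (Klrc1, Klrc3, Klre1, Klra5 and Klra8) and 7 were not, Klra17 and Klrb1b among them, which were highest in lymphoma 1. How many of all genes were highest in lymphoma 3 was not counted, so nothing is read from these counts. Klrc3 was very dim, from 3.29 to 3.75 over all 9 arrays, so its rank carries little weight. Klre1, an NK receptor of the Klr family, was 6.70 in lymphoma 3 and 5.01 to 5.62 on the other 8 arrays. Klra8, the activating receptor Ly49H, was 7.22 in lymphoma 3 and 3.85 to 5.25 on the others. Klra genes are near-identical copies, so the source of the Klra8 signal among them is uncertain. Klrc1, by contrast, was high in lymphomas 3 to 5 together (8.07 to 9.06). These genes were picked for their values, rest on 1 array, and got no test.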
